A study of Mus musculus with 58 samples.

Results

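Hcn2, Hcn3 and Hcn4, which encode pore subunits of HCN channels, and Pex5l, which encodes their auxiliary subunit TRIP8b, were described in parvalbumin (PV) cells taken singly from the ventral subiculum of mice. They were taken by name, 4 genes of the 25648 in the deposited count table, and all 4 were found there and passed the filter on low counts. PV cells are inhibitory interneurons of the hippocampal formation, and the study, by its title, asks how Neurexin-3 shapes GABAergic inhibition by synapse and sex. All animals were of the strain PV-Cre::Ai9, in which Cre recombinase driven by the parvalbumin gene switches on a red reporter, so the reporter marks any cell in which Cre has been active. Cytosol was taken up through a patch pipette, and each library is 1 cell with the labelled membrane values vrest, rm and cm. Of 58 cells, 54 carried the quality label Pass: 14 from males at postnatal day (P) 35, 13 from males at P36, 17 from females at P40 and 10 from females at P42. The labels name 4 male and 3 female animals but not the animal of each cell. Cells were therefore not counted as replicates, and the Pass cells of each sex and age were summed into 1 pool for tests. Both female pools were older than both male pools, so sex and age cannot be told apart.

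HCN channels open when the membrane becomes more negative and pass a mixed sodium and potassium current, known as Ih, that pulls the cell back toward its firing range. The current is partly on at rest, so it tends to make the resting potential less negative and the input resistance lower, and cyclic AMP binding to the channel's C-terminal domain eases opening. The subunits differ in kinetics and in their response to cyclic AMP: HCN2 and HCN4 respond strongly, HCN3 weakly or not at all, and HCN4 opens slowest and is best known as the main pacemaker subunit of the heart's sinoatrial node. TRIP8b binds the C terminus of HCN subunits, sets how much channel reaches the surface, depending on its splice form, and opposes the effect of cyclic AMP.

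In GENCODE vM21 on GRCm38, Hcn2 lies on the plus strand at chr10:79716634-79736108, Hcn4 on the plus strand at chr9:58823412-58863175, Hcn3 on the minus strand at chr3:89146074-89160196 and Pex5l on the minus strand at chr3:32949408-33143247. All 4 are protein-coding, and their merged exons span 3195 bases for Hcn2, 4154 for Hcn3, 6118 for Hcn4 and 8846 for Pex5l. Promoter sequence was matched in RefSeq (GRCm38.p6) for 2 of the 4 genes, Hcn2, counted in every Pass cell, and Hcn4, counted in 12 of 54. The 250 bases before each RefSeq start are shown 5′ to 3′ on the plus strand, chr10:79716384-79716633 for Hcn2 and chr9:58822699-58822948 for Hcn4, with each CG, the site of CpG methylation, in capitals.
Hcn2: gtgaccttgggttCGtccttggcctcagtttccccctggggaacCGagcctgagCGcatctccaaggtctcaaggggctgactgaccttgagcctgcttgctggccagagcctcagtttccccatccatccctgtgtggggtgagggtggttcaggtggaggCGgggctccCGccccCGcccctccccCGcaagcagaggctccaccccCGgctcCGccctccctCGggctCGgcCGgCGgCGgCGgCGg
Hcn4: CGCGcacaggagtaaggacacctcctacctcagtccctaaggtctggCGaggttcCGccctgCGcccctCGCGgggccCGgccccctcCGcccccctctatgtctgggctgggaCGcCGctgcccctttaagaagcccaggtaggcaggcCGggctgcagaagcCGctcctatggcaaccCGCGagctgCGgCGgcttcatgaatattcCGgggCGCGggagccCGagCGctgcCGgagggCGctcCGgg
The Hcn2 window held 16 CG pairs and was 70.4% G or C, and the Hcn4 window held 25 CG pairs and was 71.2% G or C. Over 32851 RefSeq promoter windows of the same length the medians were 6 CG pairs and 52.4% G or C, and 92.1% of the windows held at least 1 CG. Fewer CG pairs were found in 74.6% of windows than in that of Hcn2 and in 89.3% than in that of Hcn4. Both windows were thus rich in CG, the rarely detected gene more than the widely detected one, and methylation was not measured.

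Pass cells had 2.05 to 52.3 M counts, with a median of 11.5 M. At least 1 count of Pvalb, Gad1, Gad2 and Slc32a1, the defining genes of PV cells and of GABA synthesis and vesicle loading, was found in 54 of 54 cells. Gad1 was above Slc17a7, which loads glutamate into vesicles in excitatory neurons, in 54 of 54, and Pvalb was above Sst, which marks somatostatin interneurons, in 40. Markers of other cells were present too: the summed level of 10 oligodendrocyte markers was 97.7 to 12822 CPM (counts scaled to a common library total), with Opalin at a median of 0. The sum of 8 excitatory neuron markers was 22.6 to 1067 CPM, with Tbr1 and Emx1 at medians of 0, and all 4 endothelial markers had medians of 0.

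Hcn2 was found in every cell and varied least of the 4 genes by coefficient of variation. Across the 54 Pass cells its level was lowest at 0.760, had a median of 33.4 and was highest at 79.2 CPM, with quartiles of 18.8 and 44.5 CPM. Its median was above that of 63.9% of the 14933 genes tested. A count was found in 54 of 54 cells, 100% with an exact (Clopper-Pearson) 95% binomial interval of 93.4 to 100%, and 49 cells had at least 10 CPM. These intervals, here and below, take each cell as an independent draw. They do not allow for cells that share an animal, so they can be too narrow. The coefficient of variation was 52.2%, and the SD of log2(CPM + 1) was 0.98. By pool, Hcn2 ranged from 20.6 to 79.2 CPM (median 36.3) at male P35, from 0.760 to 66.7 (41.9) at male P36, from 6.96 to 49.7 (32.7) at female P40 and from 9.24 to 65.7 (29.9) at female P42. The ranges of the 4 pools overlapped over most of their span. The low end was 1 cell, male P36 cell 7, with 7 Hcn2 counts among 9.21 M, and the next lowest cell had 6.96 CPM.

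Hcn3 had nearly the same median as Hcn2 but ran from near absence to the highest level of any of the 4 genes. Its level was lowest at 0.127, had a median of 31.8 and was highest at 219 CPM, with quartiles of 6.13 and 48.0 CPM. A count was found in 54 of 54 cells, but only 38 (70.4%, exact interval 56.4 to 82.0%) had at least 10 CPM. The coefficient of variation was 107% and the SD of log2(CPM + 1) was 1.86, against 0.98 for Hcn2. The highest cells were male P36 cell 9 at 219 CPM and male P35 cell 2 at 125 CPM. The lowest were 3 female P40 cells, cell 17 at 0.127, cell 9 at 0.370 and cell 13 at 0.393 CPM, which had 2, 6 and 9 counts although their totals were 15.7, 16.2 and 22.9 M, all above the median depth. By pool, Hcn3 ranged from 2.19 to 125 CPM (median 19.3) at male P35, from 1.18 to 219 (15.9) at male P36, from 0.127 to 95.6 (35.7) at female P40 and from 4.91 to 61.3 (47.2) at female P42. The female P42 cells lay closest together, with a coefficient of variation of 45.7%, and the male P36 cells farthest apart, with 161%. Hcn3 overlaps Pklr, the red-cell and liver pyruvate kinase gene on the opposite strand, and no source used here gives the strand setting of the counting. Pklr had 19 counts over all Pass cells against 24452 for Hcn3.

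Hcn4, the pacemaker subunit, was counted in a minority of cells and was above 1 CPM in only 4 of the 54. Its median was 0 and its highest level 9.42 CPM, and a count was found in 12 of 54 cells (22.2%, exact interval 12.04 to 35.6%). Of its 343 counts, 96.8% came from 4 cells: female P40 cell 11 with 136 counts (9.42 CPM), male P35 cell 9 with 83 (7.45 CPM), female P40 cell 3 with 82 (1.57 CPM) and male P35 cell 11 with 31 (3.23 CPM). The other 8 cells with a count had 1 or 2 counts each. The 4 pools held 117, 4, 220 and 2 counts in the order of age (P35, P36, P40, P42), so the pools with many counts were those holding these 4 cells. In the 42 cells with none, a floor of 3 counts allows a level of up to 0.104 to 1.46 CPM, depending on depth. Of the 4 cells, female P40 cell 11 and male P35 cell 9 were also among the 6 cells highest in oligodendrocyte markers, with sums of 2307 and 7720 CPM, and female P40 cell 3 was the deepest library; the part of either in the Hcn4 counts was not tested.

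Pex5l, the TRIP8b gene, was low in most cells and high in a few. Its level ran from 0 to 47.8 CPM with a median of 0.834, above that of 31.5% of the genes tested, and its quartiles were 0.189 and 7.95 CPM. A count was found in 49 of 54 cells (90.7%, exact interval 79.7 to 96.9%), at least 1 CPM in 25 and at least 10 CPM in 12 (22.2%, exact interval 12.04 to 35.6%). The 12 cells at or above 10 CPM were spread over the pools, 7 of them male and 5 female. The highest were male P36 cell 7 at 47.8, male P35 cell 8 at 46.7, female P40 cell 11 at 40.2 and male P36 cell 13 at 30.7 CPM. By pool, Pex5l ranged from 0 to 46.7 CPM (median 0.552) at male P35, from 0.104 to 47.8 (0.998) at male P36, from 0 to 40.2 (1.67) at female P40 and from 0 to 21.4 (0.132) at female P42. Its coefficient of variation, 175%, was larger than those of Hcn2 and Hcn3. The 5 cells without a count allow up to 0.181 to 0.715 CPM at a floor of 3 counts. The span of Pex5l overlaps the genes Gm37443 and Gm19445 on its own strand, both in the count table. Whether this lowered the Pex5l counts was not tested. Of the 4 cells with Hcn4 above 1 CPM, 3 were among the 12 cells with Pex5l at or above 10 CPM, an overlap noticed after the values were seen.

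**Figure D1:**
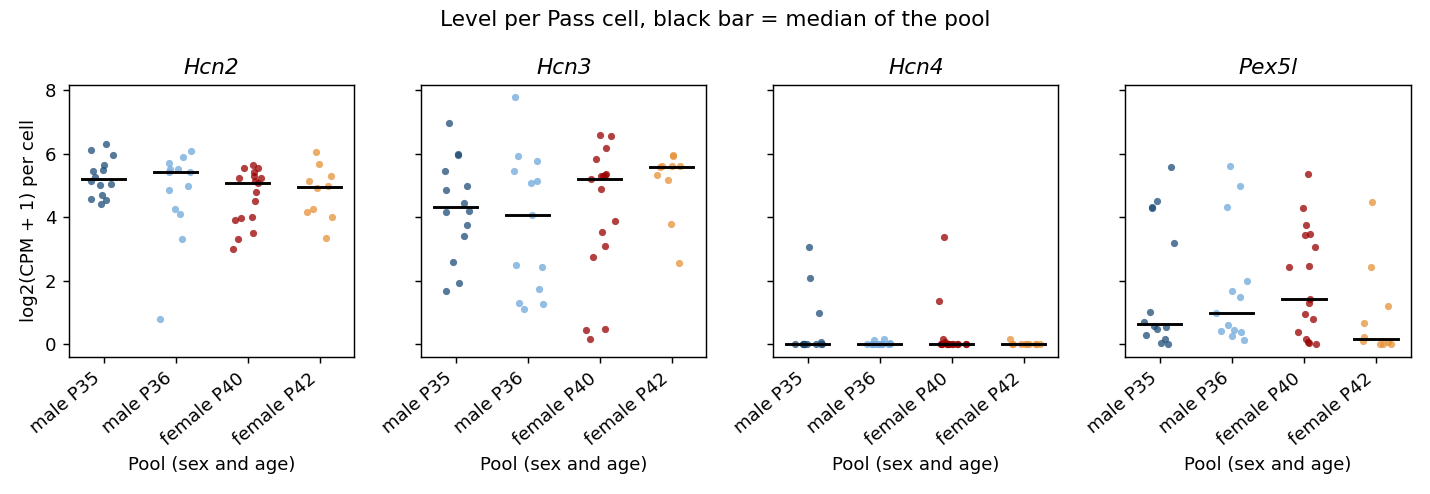
Level of Hcn2, Hcn3, Hcn4 and Pex5l in each Pass cell as log2(CPM + 1), by pool; points are cells, with sideways scatter for legibility, and black bars are pool medians. Hcn2 forms 1 band in every pool apart from 1 male P36 cell at 0.760 CPM, Hcn3 spreads from 0.127 to 219 CPM, Hcn4 is at or near 0 apart from 4 cells above 1 CPM, and Pex5l is low with 12 cells at or above 10 CPM.

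Detection depends on depth, so each cell was also thinned to the 2.05 M counts of the shallowest one. At that depth Hcn2 had a count in 54 cells, Hcn3 in 51 (94.4%), Pex5l in 36 (66.7%) and Hcn4 in 6 (11.1%). The order of detection of the 4 genes was thus as in the full data, with Hcn2 and Hcn3 found in nearly all cells.

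To compare genes with each other, CPM was divided by the merged exon length in kilobases. Median levels over the 54 cells were 10.4 CPM per kb for Hcn2, 7.65 for Hcn3, 0.0943 for Pex5l and 0 for Hcn4. With the longest coding length in place of the exon length they were 12.9 for Hcn2, 13.6 for Hcn3 and 0.428 for Pex5l, so Hcn3 then came above Hcn2. For Pex5l and Hcn4, high in a few cells, the median over the 4 pool sums was higher, 0.785 and 0.0565 CPM per kb of exon. Per kilobase, Hcn2 was above Hcn4 in 54 of 54 cells and above Pex5l in 53, the exception being male P36 cell 7. Hcn3 was above Hcn4 in 54 cells and above Pex5l in 50. Hcn4 was above Pex5l in 2 cells, with 5 cells tied at 0. In the pools, the mean log2 ratio was 4.25 (SD 0.80, n = 4 pools) for Hcn2 over Pex5l and 3.81 (SD 1.06, n = 4) for Hcn3 over Pex5l, and both ratios were positive in 4 of 4 pools (exact sign-flip test, two-sided, p = 0.125, the smallest value that 4 pools allow).

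Between Hcn2 and Hcn3 the order was not settled. Hcn2 was the higher per kilobase of exon in 35 of 54 cells (64.8%, exact interval 50.6 to 77.3%), and Hcn3 in 19. The log2 ratio of Hcn2 to Hcn3 was 1.06 and 0.41 in the male pools P35 and P36 and 0.14 and 0.16 in the female pools P40 and P42, a mean of 0.44 (SD 0.43, n = 4 pools; exact sign-flip test, two-sided, p = 0.125). The ratio was thus positive in every pool and largest at male P35. Dividing by the longest coding length in place of the exon length turned the mean to -0.08, with Hcn2 the higher in 1 of 4 pools (exact sign-flip p = 0.875) and in 30 of 54 cells, so the order rests on which transcript length was used. Of the summed per-kilobase level of Hcn2, Hcn3 and Hcn4 alone, which is not the whole HCN family, Hcn2 made up a median of 64.7%, from 2.25% to 99.8% by cell. Hcn2 exceeded 90% in 11 cells and Hcn3 in 2, while Hcn4 had at most 8.97%. Median Hcn2 shares were 70.4% at male P35, 77.4% at male P36, 55.6% at female P40 and 48.5% at female P42. With coding lengths, a choice added after seeing the data, the median Hcn2 share was 56.0% over all cells, and 62.3, 70.4, 46.5 and 39.6% in the same pools. Hcn2 then still exceeded 90% in 11 cells and Hcn3 in 2. Single cells therefore ranged from nearly all Hcn2 to nearly all Hcn3, and in every pool the share by exon length had a wide range, from 20.1 to 82.8% in the narrowest, female P42.

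**Figure D2:**
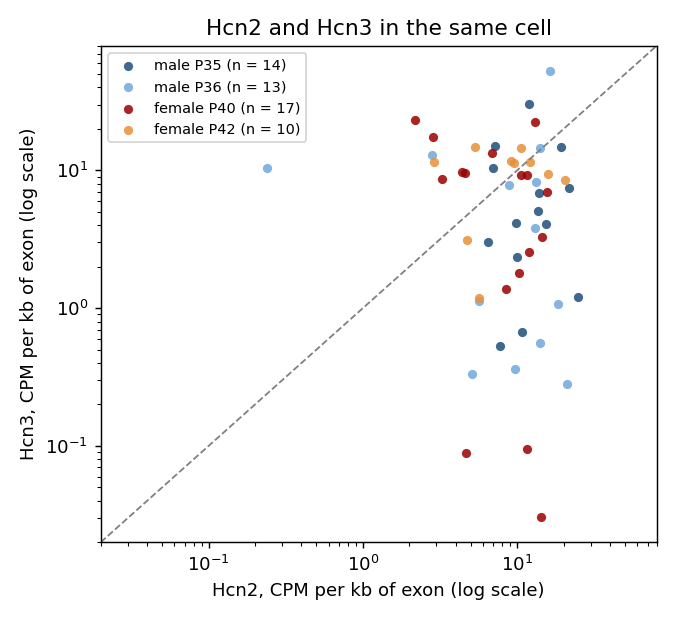
Hcn2 (horizontal) against Hcn3 (vertical) in each of the 54 Pass cells, both in CPM per kilobase of exon on log axes, coloured by pool; the dashed line marks equal levels. Most cells form a vertical band near the Hcn2 median of 10.4 CPM per kb while Hcn3 spans the axis, and 35 cells lie below the line.

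No difference between the female and male pools passed the test for any of the 4 genes. Pool levels are CPM on library sizes scaled by TMM, in the same order, P35 and P36 for males, then P40 and P42 for females. Hcn2 stood at 44.0, 37.9, 32.9 and 33.3, lower in both female pools, a log2 difference (female minus male) of -0.31 (SE 0.33; edgeR adjusted p = 0.992). Hcn3 stood at 27.5, 37.1, 38.9 and 38.6, slightly higher in both female pools, a difference of 0.26 (SE 0.35; edgeR adjusted p = 0.994). Female P40 cell 3, the deepest cell, held 54.4% of the Hcn3 counts of its pool, and without it, a choice made after seeing the data, the Hcn3 difference was -0.07. Pex5l stood at 8.21, 7.81, 6.08 and 2.11, lowest at female P42, a difference of -0.97 (SE 0.96; edgeR adjusted p = 0.985). Hcn4 stood at 0.666, 0.0252, 0.952 and 0.0163, so both male pools lay between the female pools, and its difference of 0.49 had an SE of 2.21 (edgeR adjusted p = 0.999). None of the 4 genes was called at an adjusted p under 0.05, and 0 of 4 had an unadjusted p under 0.05, where 0.0134% and 5.51% of the 14933 genes did. DESeq2 and limma also called 0 of the 4, though DESeq2 gave no adjusted p for Hcn4 and so could not have called it. The female and male pools did not overlap for 3 of the 4 genes, Hcn2, Hcn3 and Pex5l, against a background of 33.9% of all genes, too few members to read against it.

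Leaving out 1 pool or a few cells moved the Pex5l difference between -1.92 (without female P40) and -0.36 (without male P36 cells 7 and 13), with no call under any of them. Those 2 male cells were the highest of all in Slc17a7, at 409 and 428 CPM, and held 75.5% of the Pex5l counts of male P36. Beside these differences, the excitatory neuron markers had a median log2 difference of -1.56, with 6 of 8 lower in females. The oligodendrocyte markers had one of -2.25, with 10 of 10 lower. These are differences of pool sums, in which a few cells can weigh heavily. The median oligodendrocyte sum per cell was 390, 534, 763 and 210 CPM in pool order, so it was highest at female P40. The highest cell of each pool had 8775, 12822, 2307 and 434 CPM. Markers of other interneurons had a median log2 difference of -1.60, with 7 of 8 lower, and microglia markers one of 1.07, with 7 of 7 higher. Blood markers had one of 2.80, with 5 of 5 higher and all 5 at an unadjusted edgeR p under 0.05. Their sum reached 29770 CPM in female P40 cell 15 and 5794 in female P42 cell 6. Its median per cell was 52.9, 81.6, 154 and 44.1 CPM in pool order, lowest at female P42. The part of these other cell types in the levels of the 4 genes was not tested beyond the cells left out here. Of the 8 excitatory neuron markers edgeR called 0 and DESeq2 called 2, Slc17a7 and Slc17a6. Without the 6 cells highest in oligodendrocyte markers, the differences were -0.34 for Hcn2, 0.13 for Hcn3, 0.81 for Hcn4 and -1.46 for Pex5l, again with no call.

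The relation of each gene to the membrane values was then described over cells. Textbook roles of Ih make vrest and rm the readouts to look at; the labels give neither a unit nor a definition for vrest, rm or cm, and the numbers are printed as labelled. Over the Pass cells vrest ran from -72 to -48 with a median of -58, rm from 88 to 805 with a median of 266, and cm from 18 to 102 with a median of 38. Each was given for 49 cells. Values of rm and cm fell on a common trend (Spearman rank correlation -0.80, n = 49 cells), and vrest and rm had a rank correlation of 0.17 (n = 47). Cells that share an animal or a day cannot be separated here, so the rank correlation is a description and carries no p.

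Hcn2, Hcn3 and Pex5l did not stand out from other genes in their relation to vrest. The Spearman rank correlation with vrest over 49 cells was -0.02 for Hcn2, 0.03 for Hcn3 and -0.01 for Pex5l. Across all 14933 genes the rank correlation with vrest had a median of 0.00425 and ran from -0.23 to 0.24 between the 5th and 95th percentiles, so the 3 genes sat in the middle of what any gene gave. Within pools the sign varied: for Hcn2 the rank correlation was -0.26, 0.30, 0.02 and -0.33, and for Hcn3 -0.22, 0.27, 0.14 and -0.59, over 14, 13, 15 and 7 cells in pool order. For Pex5l the values were 0.01, 0.27, 0.08 and 0.82, the last over the 7 female P42 cells. In the 17 cells with the lowest vrest (-72 to -61) the median levels were 38.0 CPM for Hcn2, 17.4 for Hcn3 and 1.67 for Pex5l. In the 16 middle cells (-61 to -56) they were 26.6, 30.5 and 0.568 CPM, and in the 16 highest (-56 to -48) 36.9, 40.8 and 0.796 CPM. The median of Hcn3 was thus larger in each next set, with wide overlap: Hcn3 ran from 0.127 to 125 CPM in the lowest, from 2.19 to 95.6 in the middle and from 0.370 to 219 in the highest cells. These sets mix the pools, and female P42 had both the highest median Hcn3, 47.2 CPM, and the least negative median vrest, -55. With both measures centred on their pool, the rank correlation of Hcn3 with vrest was -0.06.

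Nor did they in their relation to rm. The rank correlation with rm over 49 cells was 0.03 for Hcn2, -0.11 for Hcn3 and 0.04 for Pex5l, against a median of -0.0134 and a 5th to 95th percentile range of -0.27 to 0.25 over all genes. Within pools, over 12, 13, 15 and 9 cells, Hcn3 gave -0.27, 0.13, -0.14 and -0.22, Hcn2 -0.11, 0.12, 0.22 and -0.23, and Pex5l 0.20, 0.32, -0.16 and -0.05. By rm, median Hcn3 was 32.7 CPM in the 17 lowest cells (88 to 232), 42.5 in the 16 middle cells (233 to 330) and 11.6 in the 16 highest (351 to 805). Median Hcn2 in the same cells was 38.0, 24.0 and 36.4 CPM, with no steady direction. Cells with at least 10 CPM of Hcn3 numbered 13 of 17, 12 of 16 and 9 of 16. The cell with the highest Hcn3, male P36 cell 9, had an rm of 509 and a vrest of -48, the least negative of all cells. Female P42 cell 9, with the largest rm, 805, had the lowest Hcn2 of its pool, 9.24 CPM.

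**Figure D3:**
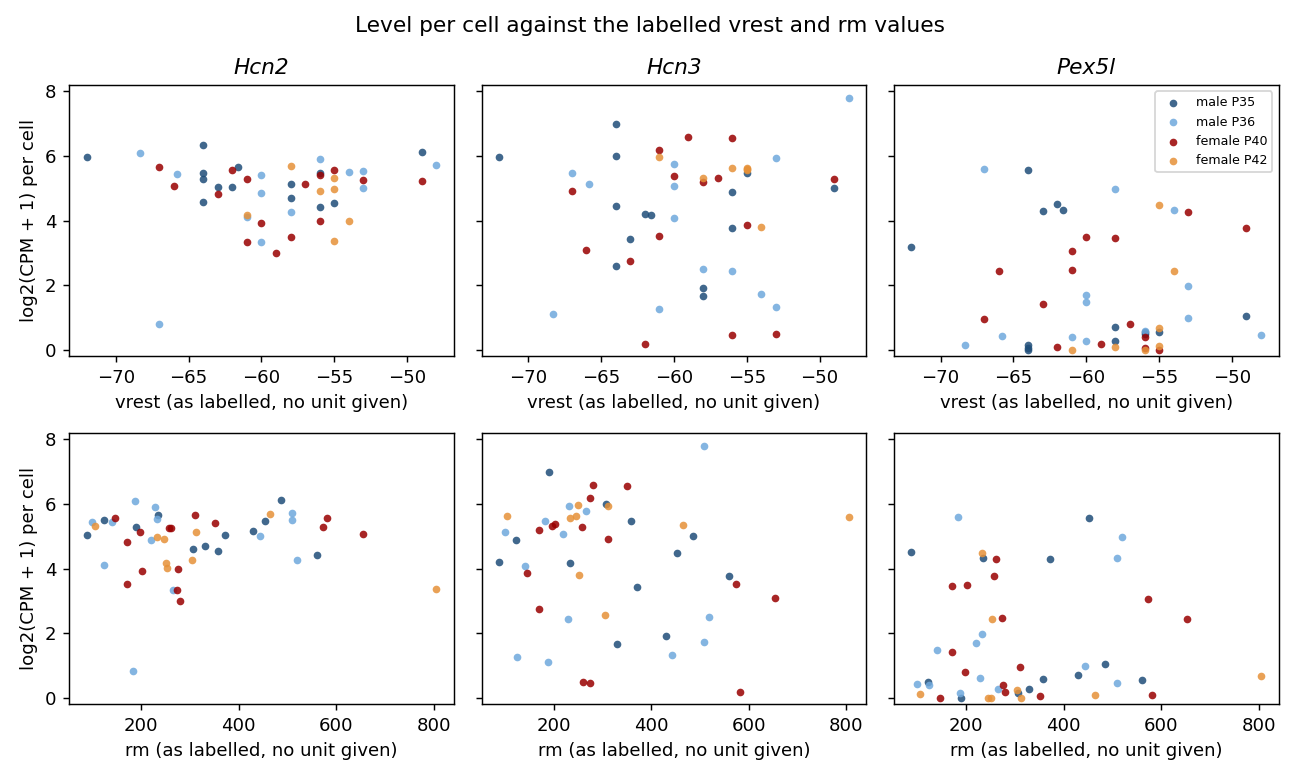
Level of Hcn2, Hcn3 and Pex5l per cell as log2(CPM + 1) against the labelled vrest (upper panels) and rm (lower panels), 49 cells each, coloured by pool. The rank correlation lies between -0.11 and 0.04 in all 6.

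The mix of the HCN genes gave no clear relation either. The Hcn2 share of Hcn2 and Hcn3 per kilobase had a rank correlation of -0.03 with vrest and 0.14 with rm (n = 49 cells each), and the rm values within pools were 0.34, 0.07, 0.24 and -0.10. With cm, the rank correlation was -0.17 for Hcn2, 0.05 for Hcn3 and -0.18 for Pex5l, against -0.26 to 0.25 for the middle 90% of genes. Pex5l was the only one of the 3 with the same sign for cm in the 4 pools (-0.17, -0.21, -0.22 and -0.20), and 12.7% of all genes had a lower rank correlation with cm than it did. Hcn4 was not related to the membrane values, since 42 of 54 cells had no count.

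**Figure D4:**
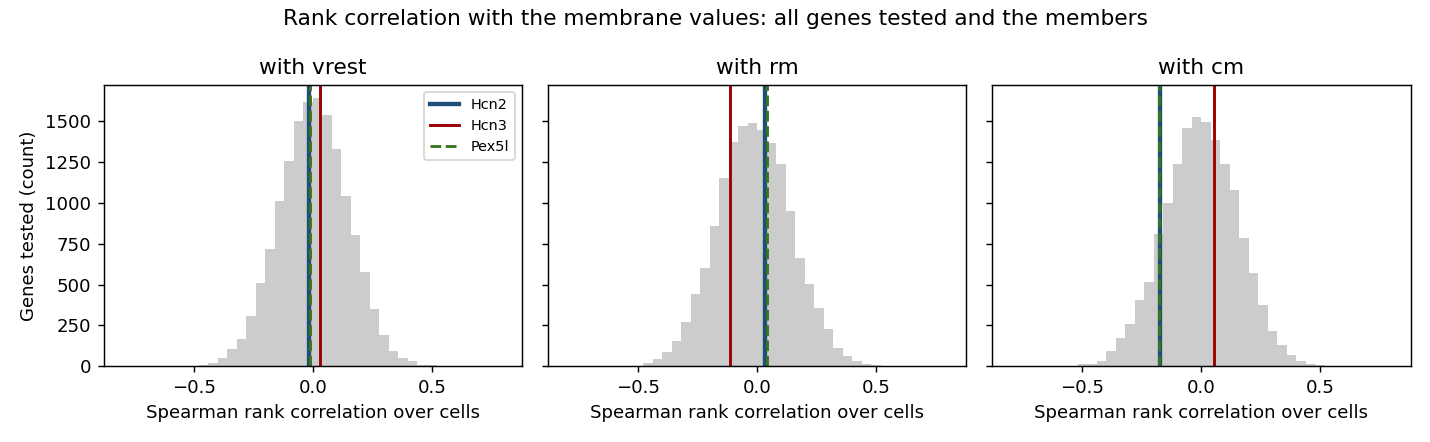
Histograms of the Spearman rank correlation over cells with vrest, rm and cm for the 14933 genes tested (grey), with lines for Hcn2 (solid blue), Hcn3 (solid red) and Pex5l (dashed green). All 9 lines fall between the 5th and 95th percentiles of the genes, and the Hcn2 and Pex5l lines nearly coincide in each panel.

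The rank correlation among Hcn2, Hcn3 and Pex5l was small and negative. Over 54 cells it was -0.16 between Hcn2 and Hcn3, -0.14 between Hcn2 and Pex5l and -0.14 between Hcn3 and Pex5l. The sum of Hcn2 and Hcn3 per kilobase had a rank correlation of -0.32 with Pex5l, and the values within pools were -0.24, -0.27, -0.22 and -0.25. Hcn4, with no count in 42 of the cells, had a rank correlation of 0.16 with Pex5l (0.24, 0.15, 0.16 and 0.18 within pools), 0.26 with Hcn3 and -0.01 with Hcn2. Its counts came from only 4, 3, 4 and 1 cells in pool order, the last with 2 counts, so the like values within pools show no steady relation. CPM values of 1 cell share its total.

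Of Hcn2, Hcn3 and Pex5l, Hcn2 had the highest rank correlation with the summed markers of PV cells and the lowest with those of excitatory neurons. Its rank correlation with the summed PV cell markers was 0.29, with Gad1 0.27 and with total counts 0.26, and 96.4%, 95.3% and 97.4% of genes had a lower rank correlation with the same measure. Gad1 is among the 11 markers of that sum, so the sum and Gad1 are not separate measures. With the excitatory neuron markers its rank correlation was -0.34, lower than for all but 1.90% of genes, and negative in the 4 pools (-0.35, -0.54, -0.13 and -0.68). With Pvalb itself the rank correlation of Hcn2 was -0.06. Hcn2 and Sst had a rank correlation of 0.27, while those of Hcn3 and Pex5l with Sst were -0.24 and -0.27. Pex5l had a rank correlation of 0.23 with the excitatory markers (0.04, 0.52, -0.21 and 0.41 within pools). With Slc17a7 it was 0.31 (0.17, 0.37, -0.17 and 0.23 within pools). Hcn3 had one of -0.26 with the oligodendrocyte markers (-0.26, -0.31, 0.12 and -0.05 within pools). Each of these had the opposite sign in female P40. Male P36 cell 7 had the lowest Hcn2, the highest Pex5l and 409 CPM of Slc17a7. Male P36 cell 13 was partly alike, with 428 CPM of Slc17a7, 30.7 of Pex5l and 18.1 of Hcn2, below the lower quartile of 18.8. Some other cells did not share this pattern. Male P35 cells 5 and 10 had 398 and 344 CPM of Slc17a7 with Pex5l at 0.621 and 0.115 CPM. Male P35 cell 8 had 46.7 CPM of Pex5l with Slc17a7 at 28.6 and Hcn2 at 43.3 CPM. Whether RNA of other cells has a part in these levels was not tested.

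The genes whose levels were most like each member's were listed by the Spearman rank correlation over the 54 cells among 13506 genes. For Hcn2 the highest were Kcnab1 (0.49), an auxiliary subunit gene of voltage-gated potassium channels, Pagr1b (0.48), Cops7a (0.48), Pdzk1 (0.47) and Pcx (0.45), the pyruvate carboxylase gene. The rank correlation of Kcnab1 was positive in the 4 pools, from 0.38 to 0.59. The lowest for Hcn2 were S100a1 (-0.54), a calcium-binding protein gene, the ribosomal protein gene Rps18 (-0.54) and Polr2j (-0.52), a subunit of RNA polymerase II. The middle 90% of genes lay between -0.25 and 0.23.

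For Hcn3 the most alike were Cars (0.57), a cysteinyl-tRNA synthetase gene, Zcchc7 (0.54), Nebl (0.54), Usp40 (0.52) and Zcchc11 (0.50), and the least alike Scand1 (-0.48), Tns3 (-0.47) and Mrpl42 (-0.45), a mitochondrial ribosomal protein gene. Cars was uneven, with 0.91 within male P36 and -0.09 within female P42. For Pex5l the most alike were a gene without a symbol in the table (0.59), Lingo1 (0.57), which encodes a neuronal membrane protein that restrains myelination, the kinase gene Csk (0.57), C77370 (0.55) and Kctd4 (0.52). Lingo1 kept a positive sign in the 4 pools, from 0.45 to 0.66. The least alike were Plcxd1 (-0.52), Gtpbp6 (-0.44) and Ass1 (-0.44), the argininosuccinate synthase gene. These are the ends of a ranking of many genes and are given as such. Hcn4 had counts in too few cells to be ranked.

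No gene on 5 lists of HCN partners, cyclic AMP genes and channel relatives was called between the female and male pools by edgeR, DESeq2 or limma, and 3 of the 62 genes tested (Pex5, Adcy2 and Pde1a) had an unadjusted edgeR p under 0.05, a share below the 5.51% of all genes. Of 18 tested genes for partners and trafficking of HCN channels, 0 were called and 9 were higher in females, with a median log2 difference of 0.06, against a median of 0.00436 and 7537 of 14933 higher over all genes. Ap2m1, a subunit of the endocytic adaptor AP-2, and Vapa, an endoplasmic reticulum protein, were the most abundant, with medians of 1054 and 240 CPM over cells. Pex5, the peroxisomal import receptor from which Pex5l takes its name, had a median of 110 CPM, where Pex5l had 0.834. Its pool levels were 132, 163, 93.8 and 106 CPM, a difference of -0.56 (SE 0.22; edgeR adjusted p = 0.899). Kcne2, a small subunit that can join HCN channels, had a median of 0.114 CPM and pool levels of 2.76, 0.934, 3.67 and 18.1 (edgeR adjusted p = 0.916).

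Genes for the making and removal of cyclic AMP, the ligand of the channels, form the next lists. Of 14 tested genes for its synthesis, 0 were called and 5 were higher in females (median log2 difference -0.14). Gnas and Gnal, which encode stimulatory G proteins, had medians of 1303 and 171 CPM. Adcy2, an adenylyl cyclase gene with a median of 1.20 CPM over cells, stood at 19.8, 16.4, 5.88 and 5.58 CPM in the pools, a difference of -1.66 (SE 0.61; edgeR adjusted p = 0.887). Of 15 phosphodiesterase genes, 0 were called and 8 were higher in females (median 0.10). Pde1a, with a median of 2.41 CPM over cells, stood at 33.4, 58.5, 18.05 and 16.96 CPM, a difference of -1.39 (SE 0.41; edgeR adjusted p = 0.878), and Pde4a and Pde2a were the most abundant, with medians of 165 and 148 CPM.

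Of 8 genes for protein kinase A and EPAC, the other main cyclic AMP sensors, 0 were called and 3 were higher in females (median -0.03), and the regulatory subunit genes Prkar1a and Prkar1b had medians of 1238 and 1145 CPM. Of 7 tested relatives of HCN genes with a cyclic nucleotide-binding type domain, 0 were called and 2 were higher in females (median -0.38). The most abundant were the potassium channel genes Kcnh2 and Kcnh7, with medians of 53.8 and 33.6 CPM. Per kilobase, the Kcnh2 median of 11.1 CPM was close to the Hcn2 median of 10.4, and that of Kcnh7 was 2.21.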

How the data were processed

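RNA was measured in single cells. The authors deposited whole-number counts per gene and cell, not normalized, from Nextera XT libraries, per the labels. STAR, edgeR and GRCm38 are named in the submitters' processing notes. No source used here gives their versions, the counting tool, the annotation or the strand setting.

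CPM used each cell's total. Gene lengths and positions came from GENCODE vM21, with 22416 genes matched to a length. Genes with a count in at least 10 Pass cells that passed filterByExpr were tested, 14933 in all, with the quasi-likelihood F test of edgeR (version 4.0.16, with limma 3.58.1 in R 4.3.3) on 4 pool sums with TMM scaling, two-sided, Benjamini-Hochberg adjusted p under 0.05. The SE is the absolute log2 difference divided by the square root of F. The p-values measure only the spread between these pools, which may be technical, and the pools are independent only if no animal gave cells at more than 1 age. The edgeR fit was tested on simulated data. Alternatives were RLE factors, no filter, at least 20 cells, equal depth, each pool left out, limma, DESeq2 1.42.0, and leaving out groups of cells. Relations used the Spearman rank correlation (Python 3.11.15, scipy 1.17.1). Exact intervals are at the 95% level, and the labels name no molecular identifiers. Identical counts were found in 0 pairs of cells.

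The members, gene lists and tests were chosen with earlier results of these data known. Named genes were the 4 members, the 2 most abundant and 2 with the smallest p of each pathway list, of which some are given, and for each member the 5 highest and 3 lowest genes by rank correlation, leaving out predicted genes by symbol. Cells were named after their values were seen. The 4 Fail cells entered no comparison. Some results are not reported here.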

Additional observations from a re-analysis of the deposited data

Results flagged for a closer look

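In 7 sets of cells, the 10 Pass cells of female P42 and the 4 Fail cells by gene, the highest and the lowest cell were compared with the rest by Dixon's criterion at the 95% level, and 2 stood apart. The chance rate of about 1 in 20 holds for normally spread values, which skewed levels such as these are not. Pex5l in female P42 cell 2 was 21.4 CPM (181 counts), against a pool median of 0.132 CPM, and that cell held 69.9% of the pool's Pex5l counts. Over all 54 Pass cells, 12 had at least 10 CPM of Pex5l, so such a level was not rare for this gene. Hcn4 in female P42 cell 9 was 0.132 CPM, which is 2 counts, with the other cells of the pool at 0; with a single cell above 0 the criterion is met whatever its value, so this one says nothing beyond the 2 counts.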

How the results depend on the processing

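Of 51 values of the female minus male difference under the alternatives, 47 kept their direction, and no alternative gave a call for Hcn2, Hcn3, Hcn4 or Pex5l (lowest adjusted p 0.766). Hcn2 stayed between -0.41 and -0.19. Hcn3 turned to -0.071 without the deepest cell. Hcn4 turned to -0.081 with limma on mean log2(CPM + 1), and leaving out each pool gave -4.34 to 4.23. It had no value with at least 20 cells required, and DESeq2 gave it no adjusted p. The number of genes called among all tested was 2, and became 111 with no filter on low counts, 5 without the 6 cells highest in oligodendrocyte markers, 179 with DESeq2 and 0 to 21 when a pool was left out. The causes were not tested. A fit without a pool leaves 1 pool in 1 sex, which is assumed to vary like the others. The medians per kilobase moved by less than the spread between cells in 24 of 24 values, but that spread is wide: coding length took Hcn3 from 7.65 to 13.6, above Hcn2 at 12.9, and Pex5l from 0.0943 to 0.428, and Pex5l was 0.785 by pool sums and 0.0550 at equal depth.

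Of 165 relation values, 155 moved by less than the spread between pools. That spread was wide for some relations, from 0.01 to 0.82 for Pex5l with vrest, so values within it could change sign. In cells with Pvalb above Sst, Hcn3 with rm went from -0.11 to 0.047 and Hcn3 with cm from 0.054 to -0.14. The Hcn2 share with rm went from 0.14 to -0.0093 there. The 10 values that moved by more were all of Pex5l with cm, whose values within pools lay close together, from -0.22 to -0.17. This relation, -0.18 in the report, was -0.12 as Pearson's r of log2(CPM + 1) and -0.14 with a pseudocount of 0.1. It was -0.20 at equal depth, -0.22 given total counts and -0.23 without the 2 extreme cells. It was -0.059 in cells with Pvalb above Sst, -0.20 without the 2 cells highest in Slc17a7, -0.21 without the deepest cell, and -0.22 to -0.14 when a pool was left out. The last 2 choices of cells were made after seeing the data. No paired analysis was possible because the labels carry no replicate numbers shared between groups.

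With 2 pools a sex, only differences large against pool spread can be called. Exon length stands in for transcript length, which decides the order of Hcn2 and Hcn3. Amplified copies are counted as reads, so low counts are less certain than they look, and the intervals on shares of cells do not cover this.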

Other observations

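The 4 cells labelled Fail, with 0.545 to 5.08 M counts, entered no comparison. Hcn2 was counted in all 4, at 27.5 to 62.2 CPM with a median of 34.1, beside a median of 33.4 in the Pass cells. Hcn3 was lowest at 0.591 CPM, had a median of 32.8 and was highest at 73.3. Pex5l was counted in all 4, from 1.58 to 41.9 CPM, on 52 counts in all, and Hcn4 had 0 counts.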
